A study of Mus musculus with 6 samples.

Results

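Claudins are 4-pass membrane proteins that join the claudins of the neighbouring cell and so build the strands of the tight junction, the seal that runs around the top of each epithelial cell. Some members close the space between cells to ions, and others form pores for sodium, water or chloride. In the small intestine the mix changes along the axis from crypt to villus, with pore-forming Cldn2 typical of the crypt, and the proteins are held in place by scaffolds of the zonula occludens family. The genes described here are 10 members of the family (Cldn1, Cldn2, Cldn3, Cldn4, Cldn7, Cldn8, Cldn12, Cldn15, Cldn18 and Cldn23), which were picked by name from a table of 55416 genes and matched to their Ensembl identifiers through GENCODE M39.

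Crypts of the duodenum and jejunum were taken from 3 mice of the C57BL/6 strain, labelled wild type, and grown as organoids, that is, small epithelial cultures in gel that hold stem cells and their descendants. Organoids of each mouse received 50 μg/ml low-density lipoprotein (LDL) or phosphate-buffered saline (PBS) for 5 days, which gave 3 LDL-treated and 3 PBS-treated libraries. The ages and sexes of the mice are not given in the sources used here. The libraries were made from total RNA without sorting of cells, so a gene's value mixes stem, absorptive and secretory cells, and a lower value from fewer cells of a type cannot be told from less RNA per cell.

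The libraries held 22061545 to 31073360 reads on genes, of which the members took 12752 to 28039. The values are normalized counts, in which the reads of a gene were divided by 1 size factor per library, and 1 read was worth between 0.814 and 1.24 normalized counts. Genes with at least 1 read numbered 29285 to 30018 in the PBS-treated libraries, and 35781, 29870 and 32751 in the LDL-treated libraries of mice 1, 2 and 3. All 15 intestinal epithelial markers, such as Epcam, Vil1 and Cdx2, were detected at levels that passed the filter, whereas only 4 of 14 stromal, 4 of 8 endothelial and 4 of 12 immune markers passed it.

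Organoids treated with LDL held more RNA of 4 claudins than PBS-treated organoids of the same mice. Cldn4, a barrier-forming claudin, was 6.87-fold higher, the pore-forming Cldn2 was 2.02-fold higher, Cldn23 was 2.01-fold higher, and Cldn18, the claudin of stomach and lung, went from near the detection limit to an average of 179 normalized counts. Cldn15, the sodium pore of the small intestine, fell by 0.44 on the log2 scale, a change too small for the fold threshold. Cldn3 and Cldn7, the most abundant members per length, and Cldn12 and Cldn8 did not pass the test. These calls came from limma on log2(normalized count + 1) with the mouse as a block, fitted to 18459 genes whose mean reached 10, and a call needed a Benjamini-Hochberg adjusted p-value under 0.05 and more than a 1.5-fold change.

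Of the 10 members, 9 passed the filter on the mean and were tested, and Cldn1 was too low. In that fit 4 of the 9 were called higher with LDL, against 5.68% of all genes tested, and 0 were called lower, against 3.46%. At an unadjusted p under 0.05 the limma fit had 5 members higher (the 4 called and Cldn3), against 14.4% of all genes, and 3 lower (Cldn8, Cldn12 and Cldn15), against 15.7%. With edgeR and DESeq2 0 members were called lower, against 3.19% and 2.77% of all genes. The LDL and PBS libraries did not overlap for 5 members with LDL higher and 1 with LDL lower, where all genes tested gave 11.9% and 12.3%. In all 3 mice 6 of the tested members were higher and 3 were lower with LDL, against 24.2% and 26.8% of all genes. The median log2 fold change over the 9 members was 0.22, and over all genes tested it was -0.02. The block mattered for these counts. With LDL and PBS as independent groups only Cldn2 was called (limma, adjusted p = 0.0269), against 0.878% of all genes, while Cldn4, Cldn18 and Cldn23 had adjusted p-values of 0.0983, 0.0995 and 0.171. On recovered whole reads with the mouse as a block, edgeR and DESeq2 each called 4 members higher, against 6.34% and 5.31% of all genes.

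**Figure D1:**
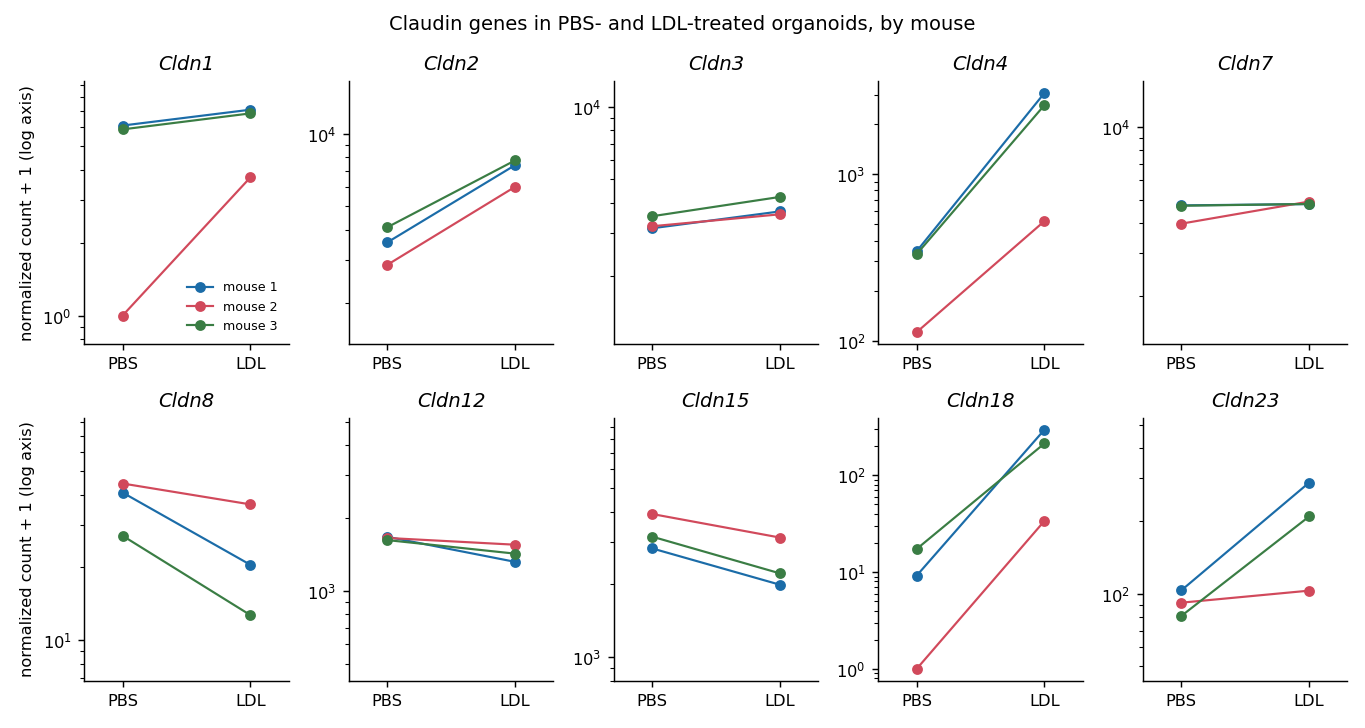
Normalized count plus 1 of each claudin gene (log axis, with its own range in each panel) in the PBS- and LDL-treated organoids of 3 mice, with 1 point per library and a line joining the libraries of a mouse. The lines of Cldn4, Cldn18 and Cldn2 rise in every mouse, those of Cldn3 and Cldn7 are nearly flat, and the LDL-treated library of mouse 2 is the lowest of the 3 for Cldn4, Cldn18 and Cldn23.

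Cldn4 lies on chromosome 5 of GRCm39 from 134973973 to 134975788 on the minus strand. Its normalized counts were 344, 112 and 331 in the PBS-treated and 3074, 523 and 2600 in the LDL-treated organoids of mice 1, 2 and 3. Every LDL-treated library lay above every PBS-treated library, and mouse 2 was the lowest in both treatments. LDL raised the gene 8.93-fold, 4.68-fold and 7.86-fold within the 3 mice, with a log2 fold change of 2.78 ± 0.17 (SE, with limma giving an adjusted p of 0.000114). No left-out mouse took the call away, and the log2 fold change then ranged from 2.59 to 3.06.

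Cldn18 (chromosome 9, 99571514 to 99599320, minus strand) has a stomach and a lung form that start at different first exons, which values per gene cannot separate. Its PBS-treated libraries held 8, 0 and 20 reads and its LDL-treated libraries 241, 36 and 253 reads, in the order of the mice. In normalized counts this was 8.17, 0 and 16.3 with PBS and 294, 32.7 and 212 with LDL, so the groups did not overlap. The PBS mean of 8.15 lay below the filter of 10, and the gene entered the test, and the count of 4 called members, only through its LDL mean. The rise was 36-fold in mouse 1 and 13-fold in mouse 3, and at least 8.78-fold in mouse 2, where 3 reads were taken as the most that a count of 0 allows. The log2 fold change was 4.57 ± 0.34 (SE, with limma giving an adjusted p of 0.000274), and it depended on the added constant, with 4.93 after adding 0.5 and 3.59 after adding 5. The antisense gene Gm16004, which overlaps Cldn18 on the other strand, had a mean of 0.761 normalized counts.

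Cldn2 (chromosome X, 138701480 to 138712135, plus strand) forms pores for cations and water. Its normalized counts were 3545, 2863 and 4094 with PBS and 7400, 6020 and 7741 with LDL, without overlap. The 3 mice were close to each other in their response, at 2.09-fold, 2.10-fold and 1.89-fold, and the log2 fold change was 1.02 ± 0.08 (SE, with limma giving an adjusted p of 0.000274). It was the member called under every alternative tried.

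Cldn23 is a gene without introns on chromosome 8 (36291866 to 36293713, minus strand), and its protein belongs to the differentiated surface epithelium of the gut. Its normalized counts were 102, 90.7 and 79.8 with PBS and 287, 102 and 207 with LDL. The LDL-treated library of mouse 2 lay within the PBS-treated values, so the groups overlapped. The rise was 2.81-fold and 2.6-fold in mice 1 and 3 and 1.12-fold in mouse 2, with a log2 fold change of 1.0 ± 0.25 (SE, with limma giving an adjusted p of 0.0348). The call rested on mice 1 and 3 together, since the adjusted p-value was 0.132 without mouse 1 and 0.301 without mouse 3, both from limma.

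The order of the 3 LDL-treated libraries was the same for Cldn4, Cldn18 and Cldn23 as for the number of genes with a read, with mouse 1 first, mouse 3 next and mouse 2 last. In mice 1, 2 and 3 genes with a read numbered 35781, 29870 and 32751 with LDL and 29667, 29285 and 30018 with PBS. These counts were taken at unlike depth, with 23973138, 28461202 and 29124473 reads on genes with LDL. With PBS the reads were 24374281, 22061545 and 31073360. Within the mice Cldn4 was 8.93-fold, 4.68-fold and 7.86-fold higher with LDL. Cldn18 was 36-fold, at least 8.78-fold and 13-fold higher, and Cldn23 2.81-fold, 1.12-fold and 2.6-fold. The part of this wider detection in the results was not tested.

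**Figure D2:**
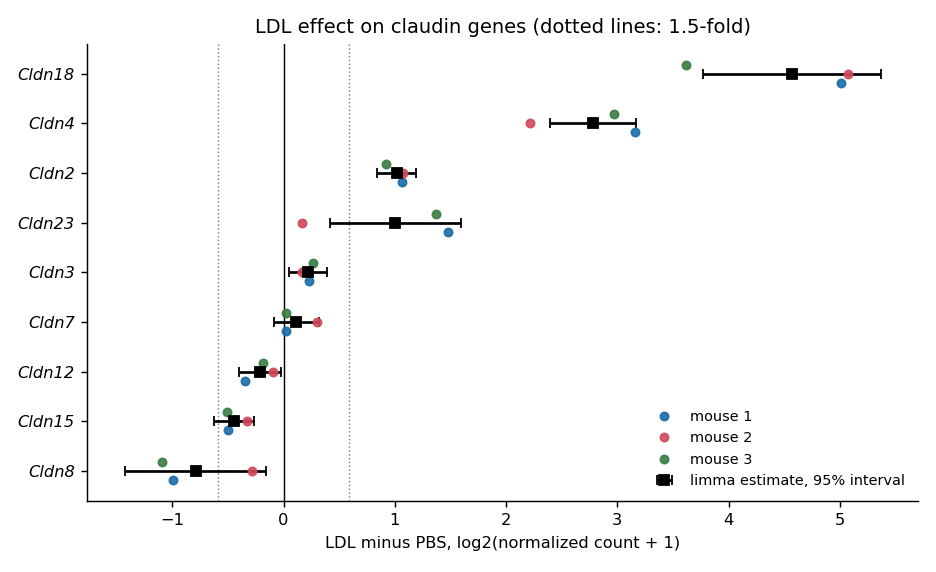
LDL minus PBS on the log2(normalized count + 1) scale for the 9 claudins tested, with the limma estimate and its 95% interval (square and bar) and the difference within each mouse (points). The estimates of Cldn18, Cldn4, Cldn2 and Cldn23 lie beyond the dotted line at a 1.5-fold rise, although the interval of Cldn23 starts below it. The intervals of Cldn3 and Cldn7 lie wholly below that line.

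Cldn3 and Cldn4 are neighbours on chromosome 5, and their starts lie 39280 bases apart on opposite strands. Within a library the ratio of Cldn4 to Cldn3 per kilobase was 0.0761, 0.0243 and 0.0652 with PBS and 0.579, 0.101 and 0.426 with LDL (exact permutation test over pairs, p = 0.25, the smallest possible). The long noncoding gene Wbscr25 covers the whole of Cldn3 on the opposite strand, from 135014903 to 135030204, and had a mean of 23.1 normalized counts and a log2 fold change of 2.49 (limma, adjusted p = 0.0102). The libraries keep strand, but the strand setting of the counting is not given in the sources used here, and reads of such overlapping pairs could be mixed if it was not used.

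The sequences around the starts of the 4 genes called higher with LDL and of Cldn3 are shown, since Cldn3 and Cldn4 are neighbours that differed in their change. Each runs 5′ to 3′ along the gene, from 250 bases before to 50 bases from the start of the canonical GENCODE M39 transcript in GRCm39. The windows are chr5:134975739-134976038 (minus strand) for Cldn4, chr5:135014818-135015117 (plus strand) for Cldn3, chrX:138701230-138701529 (plus strand) for Cldn2, chr9:99592067-99592366 (minus strand) for Cldn18 and chr8:36293664-36293963 (minus strand) for Cldn23. The Cldn18 gene extends to 99599320, upstream of its window on the minus strand, so a start of this gene further upstream is not shown. Whether the window belongs to the stomach or the lung form, and which start was used in these organoids, was not determined. Capitals mark matches to any of 7 short motifs on either strand.
Cldn4: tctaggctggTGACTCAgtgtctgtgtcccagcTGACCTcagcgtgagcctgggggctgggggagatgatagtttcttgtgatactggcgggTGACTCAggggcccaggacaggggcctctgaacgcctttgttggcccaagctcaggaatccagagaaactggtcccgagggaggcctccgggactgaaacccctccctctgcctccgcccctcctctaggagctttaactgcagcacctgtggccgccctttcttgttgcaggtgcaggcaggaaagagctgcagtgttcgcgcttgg
Cldn3: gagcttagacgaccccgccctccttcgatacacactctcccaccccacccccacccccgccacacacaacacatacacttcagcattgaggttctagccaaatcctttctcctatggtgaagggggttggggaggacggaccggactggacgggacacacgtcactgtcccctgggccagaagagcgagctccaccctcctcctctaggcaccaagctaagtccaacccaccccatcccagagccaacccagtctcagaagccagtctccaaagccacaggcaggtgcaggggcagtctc
Cldn2: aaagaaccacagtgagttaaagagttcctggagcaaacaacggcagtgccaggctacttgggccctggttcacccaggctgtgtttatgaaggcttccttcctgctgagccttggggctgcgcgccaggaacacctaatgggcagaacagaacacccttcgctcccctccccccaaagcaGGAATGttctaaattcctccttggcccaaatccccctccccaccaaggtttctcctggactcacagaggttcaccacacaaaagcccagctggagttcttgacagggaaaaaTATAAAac
Cldn18: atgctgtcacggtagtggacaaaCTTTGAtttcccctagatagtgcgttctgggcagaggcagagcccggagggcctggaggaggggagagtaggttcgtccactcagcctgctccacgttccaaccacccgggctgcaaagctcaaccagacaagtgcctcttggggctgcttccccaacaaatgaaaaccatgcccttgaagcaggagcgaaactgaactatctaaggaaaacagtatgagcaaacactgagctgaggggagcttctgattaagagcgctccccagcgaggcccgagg
Cldn23: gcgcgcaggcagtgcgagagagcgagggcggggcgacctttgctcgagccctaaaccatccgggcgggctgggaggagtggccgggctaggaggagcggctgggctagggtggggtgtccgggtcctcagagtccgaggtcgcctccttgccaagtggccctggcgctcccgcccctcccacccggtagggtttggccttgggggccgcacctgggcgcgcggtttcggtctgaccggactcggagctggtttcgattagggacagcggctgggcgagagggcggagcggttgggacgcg

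The motifs searched belong to factors of epithelial and gut genes, and each was sought on both strands. The AP-1 motif, spelled TGANTCA and read by stress-responsive and growth-responsive factors, occurs in 7.15% of 21757 promoters of this length. The Cldn4 window holds it at -240 and again at -158, counted from the start to the first base of the match, and the window of Cldn15, the member that fell at any fold, holds it at -157. The TEAD motif, spelled GGAATG and read by the partners of the Hippo pathway, occurs in 14.0% of promoters. The Cldn2 window holds it at -70, and the Cldn15 window on the other strand at -180. A half-site of nuclear receptors, spelled AGGTCA, occurs in 15.1% of promoters. The Cldn4 window holds it on the other strand at -217, and the Cldn7 window at -6. The TATA box, spelled TATAAA, occurs in 13.2% of promoters, and the Cldn2 window holds it at 43, after the start. The TCF/LEF motif, spelled CTTTGA and read by the factors of the Wnt pathway, occurs in 16.2% of promoters, and the Cldn18 window holds it at -227. The motif of Grainyhead factors, spelled AACNGGTT, occurs in 2.07% of promoters and in none of the 10 members. The GATA motif, spelled AGATAA, occurs in 10.6% of promoters and likewise in none of the members. None of the 7 motifs was found in the windows of Cldn3 and Cldn23, and no matches overlapped each other. The Cldn23 window is rich in G and C (71.7%) with 31 CpG pairs, compared with 61.0% and 9 pairs for Cldn4 and 53.3% and 4 pairs for Cldn2. A match is a run of letters and not a measured binding site.

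Cldn15 on chromosome 5 (136995470 to 137004712, plus strand) had normalized counts of 2820, 3913 and 3155 with PBS and 1995, 3127 and 2223 with LDL. It was lower with LDL in each mouse, although the groups overlapped because mouse 2 was high in both treatments. The log2 fold change was -0.44 ± 0.08 (SE, with limma giving an adjusted p of 0.00853), with a 95% interval from -0.62 to -0.26. Cldn15 was the 1 member that passed the adjusted p-value in the falling direction, which 7.45% of all genes did (8.27% in the rising direction, with 4 members). Without the block its adjusted p-value was 0.246, and without mouse 3 it was 0.174, both from limma.

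Cldn8, a claudin of the distal gut and kidney, was scarce, with 39, 35 and 32 reads in the PBS-treated and 16, 39 and 14 reads in the LDL-treated libraries of mice 1, 2 and 3. Normalized to depth it was lower with LDL in each mouse, and the groups overlapped. The log2 fold change of -0.79 ± 0.27 (SE) did not pass the test (limma, adjusted p = 0.0934), with a wide 95% interval of -1.42 to -0.16. Without mouse 2 the gene was called lower (log2 fold change -1.04, limma, adjusted p = 0.0269).

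The remaining tested members differed little between treatments. Cldn3, a barrier-forming claudin, had normalized counts of 3136, 3197 and 3516 with PBS and 3682, 3582 and 4227 with LDL. These values did not overlap, but the change of 1.17-fold (95% interval 1.04 to 1.31) did not pass the test (limma, adjusted p = 0.0815). Cldn7, a claudin of the lateral membrane that binds Epcam, had 4730, 3974 and 4715 normalized counts with PBS and 4790, 4906 and 4795 with LDL, a 1.08-fold difference with an interval of 0.943 to 1.24 (limma, adjusted p = 0.426). Cldn12, which has been linked to calcium uptake between cells, had 1671, 1653 and 1619 normalized counts with PBS and 1316, 1550 and 1423 with LDL. Its values did not overlap, and the log2 fold change of -0.21 ± 0.08 (SE) did not pass it either (limma, adjusted p = 0.132). Cldn1, a barrier-forming claudin of the skin and other epithelia, held 0 to 6 reads with PBS and 3 to 7 reads with LDL, too few for a comparison.

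The family beyond these members added little. Of 26 other claudin genes in the table, 19 held at most 3 reads in every library and 4 of those held none, and Cldn20 was the 1 gene whose mean reached 10, at a log2 fold change of 0.03 (limma, adjusted p = 0.970). The 10 members made up at least 99.5% of the claudin level per kilobase in every library.

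Levels of different genes were compared as normalized counts per kilobase of exon. In PBS-treated organoids the order was Cldn3 (2608 ± 162, SD, n = 3), Cldn7 (2118 ± 205), Cldn15 (1514 ± 257) and Cldn2 (1019 ± 180), and the 3 values of neighbours in this order did not overlap. Cldn12 (161 ± 2.56) and Cldn4 (144 ± 71.8) followed, with overlapping values, and then Cldn23 (49.2 ± 6.03), Cldn8 (15.5 ± 3.90), Cldn18 (1.83 ± 1.83) and Cldn1 (0.688 ± 0.596), of which the last 2 overlapped. In LDL-treated organoids Cldn2 (2053 ± 265) had the next place after Cldn3 (3042 ± 276) and Cldn7 (2287 ± 31.2). Cldn4 (1137 ± 747) and Cldn15 (1125 ± 275) came after it with overlapping values. Cldn12, Cldn23, Cldn18 and Cldn8 then formed a run in which each overlapped the next.

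Cldn2 and Cldn15, both pore-forming, changed places. Per kilobase, the ratio of Cldn2 to Cldn15 was 0.796, 0.464 and 0.822 in the PBS-treated and 2.35, 1.22 and 2.21 in the LDL-treated organoids of mice 1, 2 and 3, so that Cldn15 was the higher of the pair in every PBS-treated library and Cldn2 in every LDL-treated one. The exact permutation test over the 3 pairs gave p = 0.25 (two-sided), the smallest value it can give. The same order held with the length of the longest transcript, at ratios of 0.449 to 0.796 with PBS and 1.18 to 2.28 with LDL.

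As a share of all claudin RNA per kilobase, Cldn4 made up 2.52%, 0.836% and 2.25% with PBS and 16.3%, 3.24% and 13.4% with LDL. Cldn2 went from between 11.3% and 14.7% to between 19.7% and 21.1%, and Cldn15 from between 17.3% and 24.4% to between 8.84% and 16.1%. The shares of Cldn3 and Cldn7 were lower with LDL on average (30.5% against 34.1% and 23.1% against 27.7%), although neither gene's own level passed the test. A share falls when other members rise. The summed level of the 10 members was 7631 ± 383 per kilobase with PBS and 9942 ± 939 with LDL (SD, n = 3), and it was 1.38-fold, 1.21-fold and 1.32-fold higher within the mice. The exact two-sided permutation tests gave p = 0.25 over pairs and p = 0.1 for 3 against 3 libraries, in both cases the smallest value possible.

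**Figure D3:**
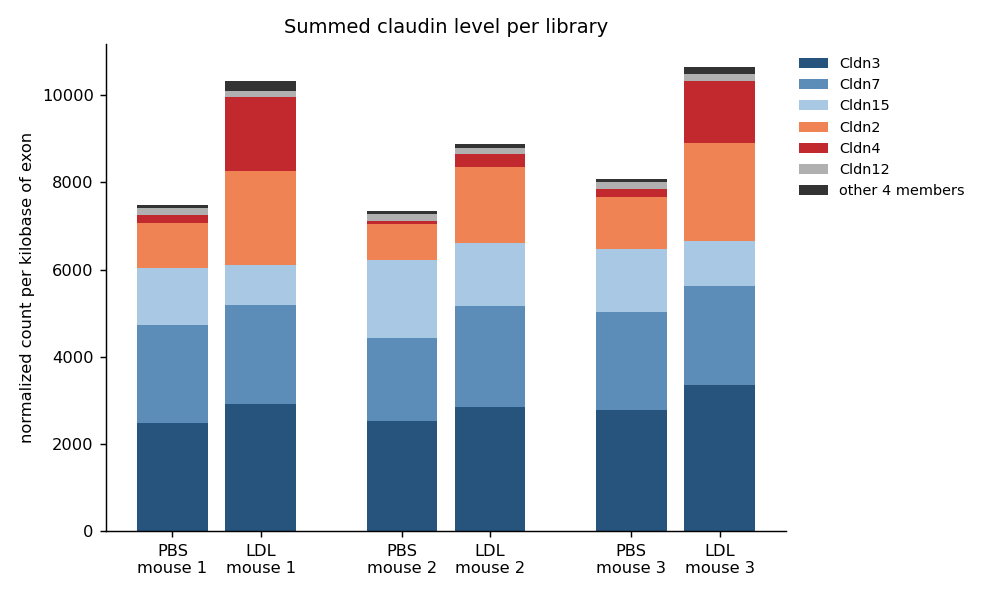
Summed claudin level in each library as normalized counts per kilobase of exon, stacked by gene, with the PBS- and LDL-treated libraries of a mouse side by side. The bar is higher with LDL in each mouse, and the sections of Cldn2 and Cldn4 grow while that of Cldn15 shrinks.

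Other tight junction genes were followed in 3 lists of 54 genes, of which 53 were in the table and 49 were tested. With LDL 9 of the 49 were called higher and 0 lower, against 5.68% and 3.46% of all genes tested, with a median log2 fold change of 0.13 (-0.02 over all genes). The tested list members comprised 12 membrane partners of claudins (4 called higher), 28 scaffolds and polarity proteins (4 called higher) and 9 genes for binding, cleavage and turnover of claudins (1 called higher). The count of 9 was 14 without mouse 2 and 2 without mouse 3, where 8.69% and 1.44% of all genes were called higher. With LDL and PBS as independent groups it was 1 (Amotl2), against 0.878% of all genes.

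Among the membrane partners, Ildr1, a protein of junctions where 3 cells meet, had normalized counts of 205, 123 and 169 with PBS and 1090, 253 and 903 with LDL (log2 fold change 1.95, limma, adjusted p = 0.00286). F11r, the junctional adhesion molecule JAM-A, had 1017 ± 134 normalized counts with PBS and 2173 ± 696 with LDL (SD, n = 3), and rose by 1.05 on the log2 scale (limma, adjusted p = 0.00173). Cxadr, a receptor-type junction protein used by coxsackieviruses, and Igsf5, the adhesion molecule JAM-4, had log2 fold changes of 0.66 and 0.61. In contrast, Ocln, which encodes occludin, had 2219 ± 111 with PBS and 2388 ± 48.8 with LDL (SD, n = 3) and did not pass the test (limma, adjusted p = 0.398).

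Among scaffolds and polarity genes, Amotl1 and Amotl2, angiomotin-like proteins of the junction, had log2 fold changes of 2.71 and 1.33, Cgnl1, which encodes paracingulin, of 1.60 and Pard6b, a polarity protein, of 1.09. Tjp1, which encodes a zonula occludens scaffold that binds claudins, passed the adjusted p-value with a smaller change, at a log2 fold change of 0.56. Epcam, whose protein binds Cldn7, had a log2 fold change of -0.12 (limma, adjusted p = 0.462).

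**Figure D4:**
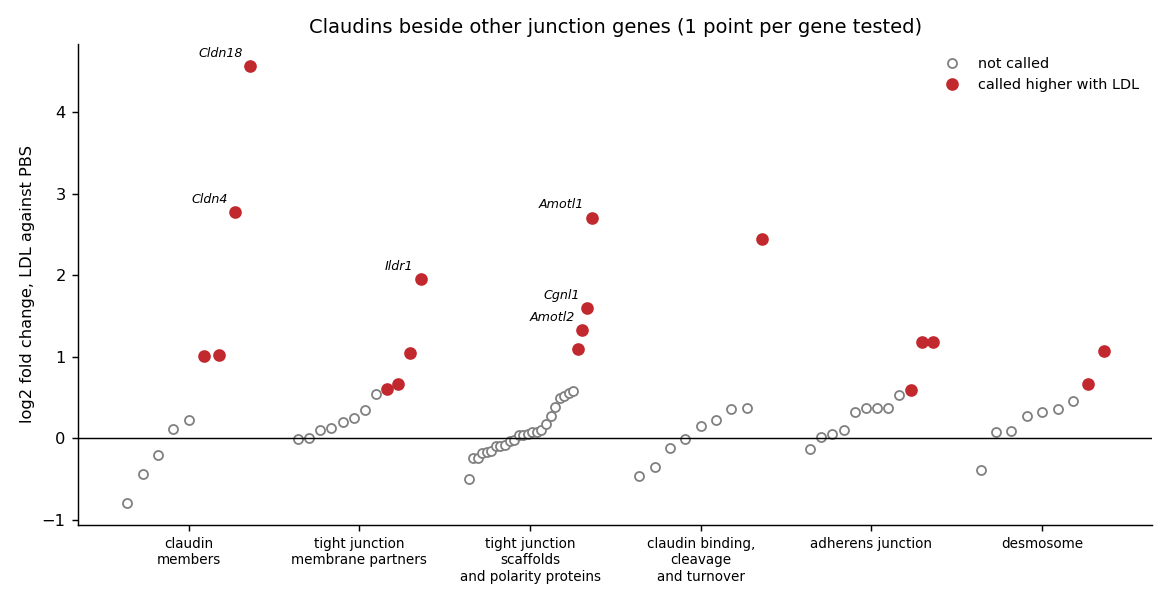
Log2 fold change of LDL against PBS for the claudins and 5 lists of other junction genes, with 1 point per gene tested and filled points for genes called higher with the mouse as a block. No gene in these lists was called lower, and Cldn18 and Cldn4 are the highest points, followed by Amotl1.

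Among the 13 lists of cell markers, the fetal-like list and part of the gastric list were higher in the same libraries as Cldn4 and Cldn18. In a list of 15 genes of fetal-like epithelium, all 14 tested were called higher with LDL, against 5.68% of all genes tested. The summed normalized count of the list was 3514 to 7192 with PBS and 9451 to 45528 with LDL. Without the block 0 of the 14 were called, in a fit where 0.878% of all genes were called higher. Clu, which encodes clusterin, had 285, 32.3 and 185 normalized counts with PBS and 10346, 931 and 7102 with LDL, with mouse 2 lowest in both treatments as for Cldn4. For the gastric list the sum was 226 to 468 with PBS and 724 to 4464 with LDL. There 6 of 14 genes were tested, and 3 were called higher and 1 lower, against 5.68% and 3.46% of all genes tested. Of those called higher, Ctse and Anxa10 had log2 fold changes of 5.09 and 3.79. The value of Ctse depended on the added constant, with 5.25 after adding 0.5 and 4.33 after adding 5. Without the block 0 of the 6 were called, where 0.878% of all genes were called higher. Of the defining gastric products, Tff2 held no read in any library, and Tff1, Gkn1, Gkn2 and Muc5ac did not pass the filter on the mean. The part of these lists in the claudin results was not tested.

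The genes whose log2 values were most like those of Cldn18 over the 6 libraries, among genes whose mean reached 100, were Grhl3, AI506816 and Cyba, with Pearson r between 0.995 and 0.996. Grhl3, a Grainyhead-like transcription factor of surface epithelia, had 28.7 ± 19.0 normalized counts with PBS and 251 ± 150 with LDL (SD, n = 3). For Cldn15, the member with the lowest p-value among those that were lower with LDL, they were Zfp120, Gm10257 and Pdhx, with r of 0.999, 0.998 and 0.998. The 6 libraries come from 3 mice and 2 treatments, which each of these correlations shares, and 11938 or 11939 genes were searched for each, so high values of r are a description only.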

How the data were processed

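RNA-Seq libraries of 6 organoid cultures (3 mice, each with LDL and PBS) were analyzed. The authors removed ribosomal RNA, made stranded libraries, demultiplexed reads with bcl2fastq 2.20, aligned them to GRCm39 with STAR, counted them per gene with featureCounts and scaled them with DESeq2. The deposited signal values are normalized counts, and dividing by the smallest value above 0 in each library gave whole reads for 100% of values (tolerance 0.01). On these reads edgeR called 1171 genes higher and 588 lower.

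Gene names and positions came from GENCODE M39, which held 54749 of the 55416 identifiers. Libraries were assigned to treatment and mouse by their titles, and both libraries of a number carry 1 animal identifier. After removal of treatment means, same-mouse libraries correlated across genes with r = 0.484, 0.421 and 0.462. LDL and PBS were compared with limma 3.58.1 (eBayes with trend, two-sided) in R 4.3.3, as stated in the report. The mouse was a block because the columns are paired by replicate number, while the study's methods name no covariate for the DESeq2 test. Alternatives were the fit without the block, other constants, filters, scalings, thresholds, each mouse left out, edgeR 4.0.16 and DESeq2 1.42.0. The limma fits with and without the block were also run on simulated data, as a check of the code only.

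The members, the 5 lists of junction genes, the 13 lists of cell markers and the tests were chosen with earlier results of these data known. The rule for names was all members, up to 6 called genes per list and direction by size of change, the 2 genes of each list with the highest mean, and the 3 genes most like the leading rise and fall. Some genes of that rule, among them those whose direction or call changed with many settings, are counted but not named. Tjp1, Wbscr25, Gm16004 and the gastric genes that did not pass the filter were named after their values were seen. A count of 0 was taken to allow 3 reads, which covers counting error only. Protein sequences were not used here. Some genes of the lists are counted but not reported here by name.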

Additional observations from a re-analysis of the deposited data

How the results depend on the processing

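The log2 fold changes of the 9 tested members kept their direction under every alternative in which the member was tested. Cldn2 kept its call under all of these fits, and Cldn4 and Cldn18 lost theirs without the replicate block only. With LDL and PBS as independent groups (no replicate block), 235 genes were called in place of 1687 (162 higher and 73 lower in place of 1048 and 639), 1 claudin in place of 4 and 1 tight junction partner in place of 9. Leaving out 1 mouse at a time, which removes both of its libraries, gave 342 to 2952 genes (265 to 1604 higher and 77 to 1348 lower), 3 to 4 claudins called higher, 0 to 1 called lower and 2 to 14 partners called higher, with the fewest genes in all without mouse 3 and the most without mouse 2. In each such fit only 2 mice remain, and the cause of these shifts was not tested. An adjusted p-value under 0.05 with any fold gave 2901 genes (1375 lower), 1 claudin lower, and 15 partners higher and 3 lower. An adjusted p-value under 0.001 gave 227 genes (188 higher and 39 lower) and 1 partner higher. With the length of the longest transcript in place of all exons, 14 of 20 ranks of claudin levels were kept. Cldn7 then came before Cldn3 in both treatments, and Cldn15 before Cldn4 with LDL. Low read counts limit what can be said of Cldn8 and of Cldn18 with PBS.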

Other observations

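Other junctions of the epithelium were also followed. Of 12 adherens junction genes tested, 3 were called higher with LDL and 0 lower, where 5.68% and 3.46% of all genes tested were called, with a median log2 fold change of 0.37, and Nectin2, an adhesion protein, had a log2 fold change of 1.18. Of 9 desmosome genes, 2 were called higher, among them Ppl, which encodes periplakin, at 1.07. At any fold 4 desmosome genes passed the adjusted p-value higher and 1 lower, against 8.27% and 7.45% of all genes. Among the 15 intestinal epithelial markers 3 were called higher, including the keratin genes Krt8 and Krt18 at log2 fold changes of 0.79 and 0.93. At any fold 5 of these markers passed the adjusted p-value higher and 1 lower. Without the block 1 adherens junction gene, 0 desmosome genes and 0 intestinal markers were called higher, against 0.878% of all genes.

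Other cell markers were called in both directions, to be read against the same 5.68% higher and 3.46% lower of all genes. Goblet cell genes had 4 of 12 called lower and 1 higher, Paneth cell genes 4 lower and 2 higher of 12, and enteroendocrine genes 2 lower and 0 higher of 12. Enterocyte genes had 6 called higher and 5 lower of 18, and stem cell genes 2 in each direction of 12. Of 7 tested tuft cell genes 1 was called lower. Without the block 1 goblet cell gene was called higher and 3 lower, and 2 enterocyte genes higher and 0 lower. In that fit 162 of all 18459 genes were called higher and 73 lower. None of the Paneth, enteroendocrine, stem or tuft cell genes was called in it. Of 12 proliferation genes 0 were called, with 1 past the adjusted p-value at a smaller fold. None of the 4 tested genes in each of the stromal, endothelial and immune lists was called, with 1 stromal gene past the adjusted p-value at a smaller fold.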
